A study of Mus musculus with 4 samples.

Results

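A lysosome is bounded by a membrane that carries a proton pump, channels, transporters and heavily glycosylated proteins, and the transcripts of 44 genes of this compartment are described here. The set held the 15 genes of the deposited count table whose symbol starts with Atp6v, the subunits of the vacuolar proton pump (V-ATPase), and 29 genes listed by symbol. All 44 were among the 12700 genes of the table. Other subunit genes of the V-ATPase (Atp6v1g1, Atp6v1b1, Atp6v1c2, Atp6v0a4 and Atp6v0d2 among them) were not analysed here. The rule that picks the members uses symbols and no measured value, but the members were chosen with earlier results of these data known.

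The V-ATPase is built from a cytosolic V1 sector, which hydrolyses ATP, and a membrane V0 sector, whose ring of proteolipid subunits carries protons into the lumen. The acid lumen keeps hydrolases active and drives the export of lipids, ions and amino acids by proteins of the lysosomal membrane. The transcription factor TFEB and its relatives TFE3 and MITF bind an E-box called the CLEAR element in the promoters of many lysosomal genes. In neurons the same pump also acidifies synaptic vesicles, so its transcripts are abundant in brain. Hunter syndrome is caused by loss of iduronate 2-sulfatase (Ids), a soluble lysosomal enzyme that removes sulfate from heparan and dermatan sulfate.

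RNA came from C57BL/6 mice aged 9 months, either Ids knock-out (Ids-ko, labelled Ids-/-) or wild type littermates (wt). The brain areas taken from each genotype were the cerebral cortex (Cx) and an area holding midbrain, diencephalon and hippocampus (M). CxH is the Cx library of Ids-ko mice, CxWT that of wt mice, MH the M library of Ids-ko mice and MWT that of wt mice. Both areas were taken from each brain, so the Cx and M libraries of a genotype came from the same 7 mice and are not independent pools. Each was 1 library of pooled polyA RNA and all were sequenced in a single run, so variation between animals was not measured and each comparison has no replicate check.

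Reads on genes numbered between 16380080 (MWT) and 23475080 (CxH), and the 44 genes took 0.752 to 0.867% of them. Levels are reads per 1000000 aligned reads (RPM) and are given in the order CxH, CxWT, MH and MWT, unless a library is named. Every ± is a standard error from counting reads. It covers counting error only, as do the 95% exact Poisson intervals. Depth was enough for 43 of the 44 genes to have at least 100 reads in every library, the exception being Aga. A gene was called higher or lower in a pair of libraries when its log2 ratio reached 0.7 in either direction and a likelihood ratio test, which takes the reads as Poisson counts, had a p-value under 0.05. Such a call compares those 2 libraries and not the conditions.

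Ids, the disrupted gene, checks the labels first. It stood at 135, 354, 368 and 155 RPM, so the log2 ratio was -1.39 ± 0.024 in CxH vs. CxWT and 1.24 ± 0.025 in MH vs. MWT. In M the library labelled MH held the higher level, against its label. Markers of the areas went against the labels as well. Summed over 15 markers of cortical excitatory neurons, the libraries held 4972, 951, 4456 and 784 RPM, and summed over the 14 markers of midbrain and diencephalon in the table they held 28.4, 485, 40.4 and 417 RPM. CxH and MH thus both carried cortical markers, and CxWT and MWT both carried midbrain and diencephalon markers. Each comparison named Ids-ko over wt therefore also differed in area markers, and each named Cx over M differed in Ids and little in area markers. CxH was the 1 library of the 4 whose level of Ids and area markers both went with its label. Whether libraries or columns were exchanged was not tested, no library was moved to another group, and if names were exchanged the comparison names would not say what was compared. The names CxH, CxWT, MH and MWT are labels throughout, and every direction is between libraries so labelled.

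Promoter sequence shows which of these genes carry the CLEAR element. RefSeq windows on GRCm38.p6, from 250 bases before to 50 bases after an annotated transcript start, matched 37 of the 44 genes. Atp6v0a2, Atp6v1b2, Atp6v1c1, Atp6v1h, Npc1, Aga and M6pr had no window. The motifs searched were the E-box CACGTG, its extension TCACGTGA and the full CLEAR palindrome, which adds a G before and a C after that extension. Each contains the one before it and each is its own reverse complement, so both strands were covered. CACGTG lay in a window of 13 of the 37 genes (35.1%), against 11.7% of the 10086 genes of the table that have a window. TCACGTGA lay in 10 of 37 (27.0%), against 2.18%, and the full palindrome in 2 of 37 (5.41%), against 0.763%. TCACGTGA lay in 3 of 11 V-ATPase genes with a window and in 7 of 26 of the genes listed by symbol. The sites of the 10 genes with TCACGTGA are shown because their share stands furthest above that of the table. Igf2r held 2 copies of TCACGTGA, of which the one within the full palindrome is printed. Sites are on the strand of the gene, 5′ to 3′, with the longest motif found in capitals and 10 bases on each side.
Atp6v0d1, chr8:105566051-105566078, minus strand: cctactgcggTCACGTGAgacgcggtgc
Atp6v0e, chr17:26676388-26676415, plus strand: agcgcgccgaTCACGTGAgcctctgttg
Atp6v1a, chr16:44139374-44139401, minus strand: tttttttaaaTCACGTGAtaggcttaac
Mcoln1, chr8:3500463-3500490, plus strand: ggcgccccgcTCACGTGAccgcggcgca
Clcn7, chr17:25133387-25133414, plus strand: cgatgatagaTCACGTGAgacctgggcg
Cln3, chr7:126583340-126583369, minus strand: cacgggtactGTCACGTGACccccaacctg
Igf2r, chr17:12769696-12769725, minus strand: gccgactcagGTCACGTGACgctccgggga
Gnptg, chr17:25240121-25240148, minus strand: cggctgtcacTCACGTGAccgtgagacc
Sumf1, chr6:108185578-108185605, minus strand: gcaccacaggTCACGTGAtctccatggg
Tmem55b (RefSeq Pip4p1), chr14:50930887-50930914, minus strand: ggccagcctgTCACGTGAgcggggcggc

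Lamp1, Gaa and Atp6v0b carried the E-box without the extension. Lamp1 and Gaa are shown because Lamp1 is a standard marker of lysosomes and Gaa was the 1 called gene with the motif. Lamp1 held 4 copies, of which 1 is printed.
Lamp1, chr8:13159106-13159131, plus strand: gtccagcgccCACGTGatgccgactg
Gaa, chr11:119267813-119267838, plus strand: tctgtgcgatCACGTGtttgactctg

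None of the 10 genes with TCACGTGA was called in any of the 6 pairs of libraries, against 30% of the 220 genes of the table with this motif and 41.1% of all genes of the table with a window. Of the 11 genes called in at least 1 pair, 10 had a window, and 1 of these held CACGTG and 0 held TCACGTGA. Among the 33 genes called in no pair, 27 had a window, and 12 of these held CACGTG and 10 held TCACGTGA. A match is a description of the letters in the window, and binding was not measured.

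V-ATPase transcripts were the bulk of the set, and few were called. The 15 subunits summed to 3425, 3154, 3067 and 3007 RPM, and the 29 other genes to 1523, 1834, 1373 and 1900 RPM. Atp6v1f was the 1 of the 15 called in any of the 6 pairs, in MH vs. MWT. Of all genes, 41.8% were called in at least 1 of the 6 pairs. With library scaling by TMM or DESeq2 factors Atp6v1e1 was called as well, higher in CxH vs. CxWT (0.73 and 0.72), and with column totals Atp6v1c1, lower in CxH vs. MWT (-0.79). Per kilobase of the longest protein-coding transcript, Atp6v0c was the leading subunit in each library, with 722.5, 659, 687 and 492 RPM per kb. It encodes the proteolipid that forms most of the proton-carrying ring, and it made up 35.9, 37.0, 38.5 and 29.8% of the summed subunit levels per length. Atp6v1g2, the G subunit isoform enriched in neurons, came next with 257, 175, 190.1 and 178 RPM per kb. Atp6v0a2 and Atp6v0e were the lowest subunits in all 4 libraries, between 6.71 and 9.51 RPM per kb. Isoforms of a subunit differed more than libraries did, whose largest fold for a subunit was 1.76 (Atp6v1f). Atp6v0a1, the a isoform of neurons, stood at 79.6 RPM per kb in CxH against 7.85 for Atp6v0a2, and Atp6v0e2 at 146 against 8.40 for Atp6v0e. The order of the subunits in the middle of the range shifted between libraries, with Atp6v1f at rank 8 in MH and rank 12 in MWT.

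**Figure D1:**
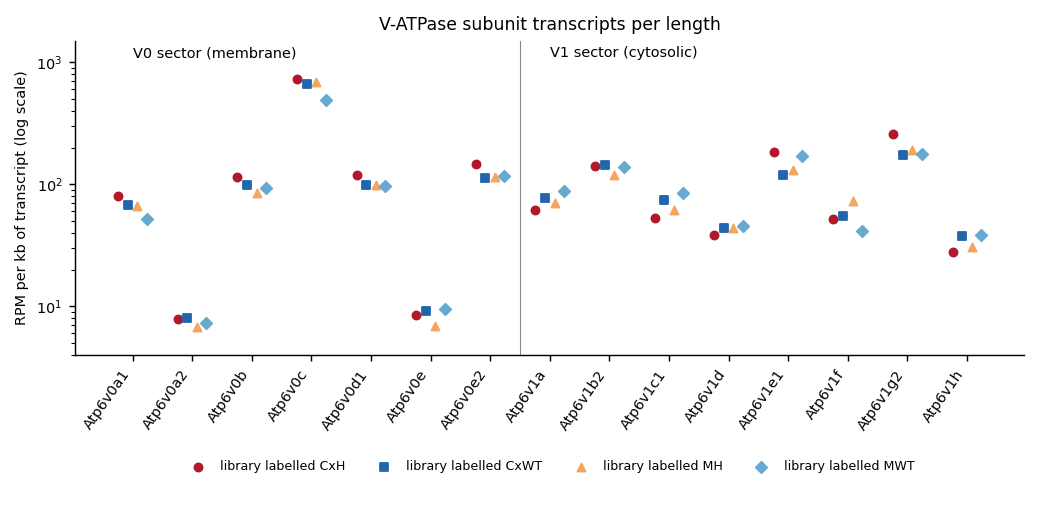
V-ATPase subunit levels in RPM per kb of the longest protein-coding transcript on a log scale, 1 point per library and subunit, with the V0 sector on the left and the V1 sector on the right. Atp6v0c leads in all 4 libraries, at 492 to 722.5 RPM per kb, and Atp6v0a2 and Atp6v0e stay under 10 RPM per kb.

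None of the 7 subunits of the V0 sector was called in any pair, against 41.8% of all genes called in at least 1. Atp6v0c had 855, 779, 813 and 582 RPM, lowest in MWT, with a log2 ratio of 0.48 ± 0.014 in MH vs. MWT and 0.42 ± 0.014 in CxWT vs. MWT. In Cx its ratio was 0.13 ± 0.012 for CxH vs. CxWT. Atp6v0a1, the large subunit that lines the proton path, had a like order, at 319, 273, 264 and 208 RPM. Atp6v0d1, which joins the sectors, was at 193, 162, 162 and 156 RPM, and Atp6v0b, a second ring proteolipid, at 115, 99.5, 84.1 and 92.7 RPM. Atp6v0e2 was at 267, 206, 209 and 214 RPM, highest in CxH like the other 4 named here. The scarcer isoforms were at 41.6, 42.8, 35.6 and 38.7 RPM (Atp6v0a2) and 23.6, 25.6, 19.4 and 26.7 RPM (Atp6v0e). All 7 had a log2 ratio above 0 in CxH vs. MH, from 0.07 to 0.46 with a median of 0.28, where the median of all genes was 0.01. After a correction for GC content and length of the transcript, 6 of the 7 remained above 0 and Atp6v0c went from 0.07 to -0.17.

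The 8 subunits of the V1 sector did not share an order. Atp6v1b2, the brain isoform of the B subunit and the member of the sector with most reads, was at 397, 403, 334 and 394 RPM, with log2 ratios of -0.02 ± 0.017 in CxH vs. CxWT and -0.24 ± 0.019 in MH vs. MWT. Atp6v1a, which holds the catalytic site, was at 260.0, 329, 299.8 and 372 RPM, lowest in CxH and highest in MWT. The same order of ends held for Atp6v1c1 (111, 156, 129 and 178 RPM), Atp6v1h (54.8, 74.2, 60.0 and 76.5 RPM), both regulators of sector assembly or activity, and Atp6v1d of the central stalk (137, 155, 157 and 164 RPM). The peripheral stalk subunits went another way. Atp6v1e1 was at 223, 143, 159 and 204 RPM and Atp6v1g2 at 393, 267, 291 and 271 RPM, both highest in CxH. Atp6v1f stood apart, with 36.3, 38.3, 51.7 and 29.4 RPM and its top in MH. It encodes a small stalk subunit and lies on mm9 chr6:29417718-29420512. Its log2 ratio was 0.81 ± 0.059 in MH vs. MWT, where it was the 1 of 44 genes called higher, against 12.3% of all genes. With an assumed variation of 0.2 between libraries, or a threshold of 1, it was not called. Its ratio was -0.08 ± 0.056 in CxH vs. CxWT. After the correction for GC content and length it was 0.93 in MH vs. MWT, and the ratio in CxH vs. MH went from -0.51 to -0.86, past the threshold.

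Of the 5 lysosomal membrane glycoproteins, 3 were called lower in MH vs. MWT, against 12.7% of all genes, and 1 of 5 after the correction for GC content and length. All 5 had a negative log2 ratio in MH vs. MWT (median -0.85, and -0.61 after correction) and CxWT vs. MWT (median -0.52), and a positive one in CxH vs. MH (median 0.19), where the medians of all genes were -0.07, 0.04 and 0.01. Lamp1, which with Lamp2 makes up much of the sugar coat inside the membrane, was at 334, 366, 294 and 456 RPM. Its ratio was -0.63 ± 0.019 in MH vs. MWT and -0.13 ± 0.018 in CxH vs. CxWT, short of a call in both. Lamp2, needed for the fusion of autophagosomes and for chaperone-mediated autophagy, was at 58.5, 74.6, 55.5 and 113 RPM. MWT stood well above the other 3 libraries. The gene lies on mm9 chrX:35754534-35809631 and was called lower in MH vs. MWT (-1.02 ± 0.041) and CxH vs. MWT (-0.95 ± 0.040). Lamp2 had the lowest GC content of the set (38.7%). After the correction its ratios were -0.59 and -0.21, and neither was called.

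Scarb2 encodes LIMP-2, the receptor that brings glucocerebrosidase to the lysosome, and was at 27.0, 30.8, 23.7 and 42.7 RPM. It was called lower in MH vs. MWT (-0.85 ± 0.064, and -0.79 after correction). Cd63, a tetraspanin of late endosomes and lysosomes on mm9 chr10:128345975-128349872, was at 25.1, 16.9, 13.2 and 27.3 RPM. CxH and MWT were both above CxWT and MH. It was called lower in MH vs. MWT (-1.05 ± 0.083) and higher in CxH vs. MH (0.93 ± 0.080), and the first of these was -0.66 and not called after correction. In CxH vs. CxWT its ratio was 0.57 ± 0.076, of the opposite sign to that in MH vs. MWT.

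Cd68, the macrosialin of microglia and macrophages, had the largest ratio of the set in CxH vs. CxWT. It was at 31.2, 11.6, 14.9 and 16.6 RPM, from 1202, 390, 557 and 480 reads. CxH lay above the other 3 libraries, whose intervals ran from 10.5 to 18.1 RPM. The gene (mm9 chr11:69477715-69479655) was called higher in CxH vs. CxWT (1.43 ± 0.084), CxH vs. MH (1.07 ± 0.074) and CxH vs. MWT (0.91 ± 0.078), and these were 1.29, 0.90 and 0.87 after correction. It was the 1 member of 44 called higher in CxH vs. CxWT, against 9.46% of all genes, and the 1 called higher in CxH vs. MWT, against 15.6%. With TMM or DESeq2 library factors 3 members were called higher and 1 lower in CxH vs. CxWT, since Atp6v1e1 and Man2b1 were then called higher and Manba was not called. In M it was not called, at -0.15 ± 0.090 for MH vs. MWT.

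Markers of microglia differed between the same libraries. Of 16 genes of activated microglia in the table, 11 were called higher and 1 lower in CxH vs. CxWT (9.46% of all genes higher), 12 higher and 0 lower in CxH vs. MH (2.43% higher), 1 higher and 12 lower in MH vs. MWT (12.7% lower), and 0 higher and 11 lower in CxWT vs. MWT (2.11% lower). In CxH vs. MWT, where Cd68 was called higher, 0 were called higher and 5 lower (15.1% lower), and after correction 2 higher and 3 lower, with a median of 0.08 before it and -0.14 after. Their summed level was 1119, 823, 791 and 1012 RPM, and no marker was at 0 in any library. Tyrobp, an adaptor of microglial receptors, was at 18.9, 7.38, 7.44 and 21.0 RPM, high in CxH and MWT as Cd63 was. Cd68 was high in CxH but not in MWT. The 11 homeostatic microglia markers summed to 579, 375, 450.2 and 479 RPM, and markers of astrocytes to 4203, 3184, 3408 and 3870 RPM. In bulk tissue a change in the number of cells of a type and a change in RNA per cell cannot be told apart. The part of these cells in the levels of the lysosomal genes was not tested.

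**Figure D2:**
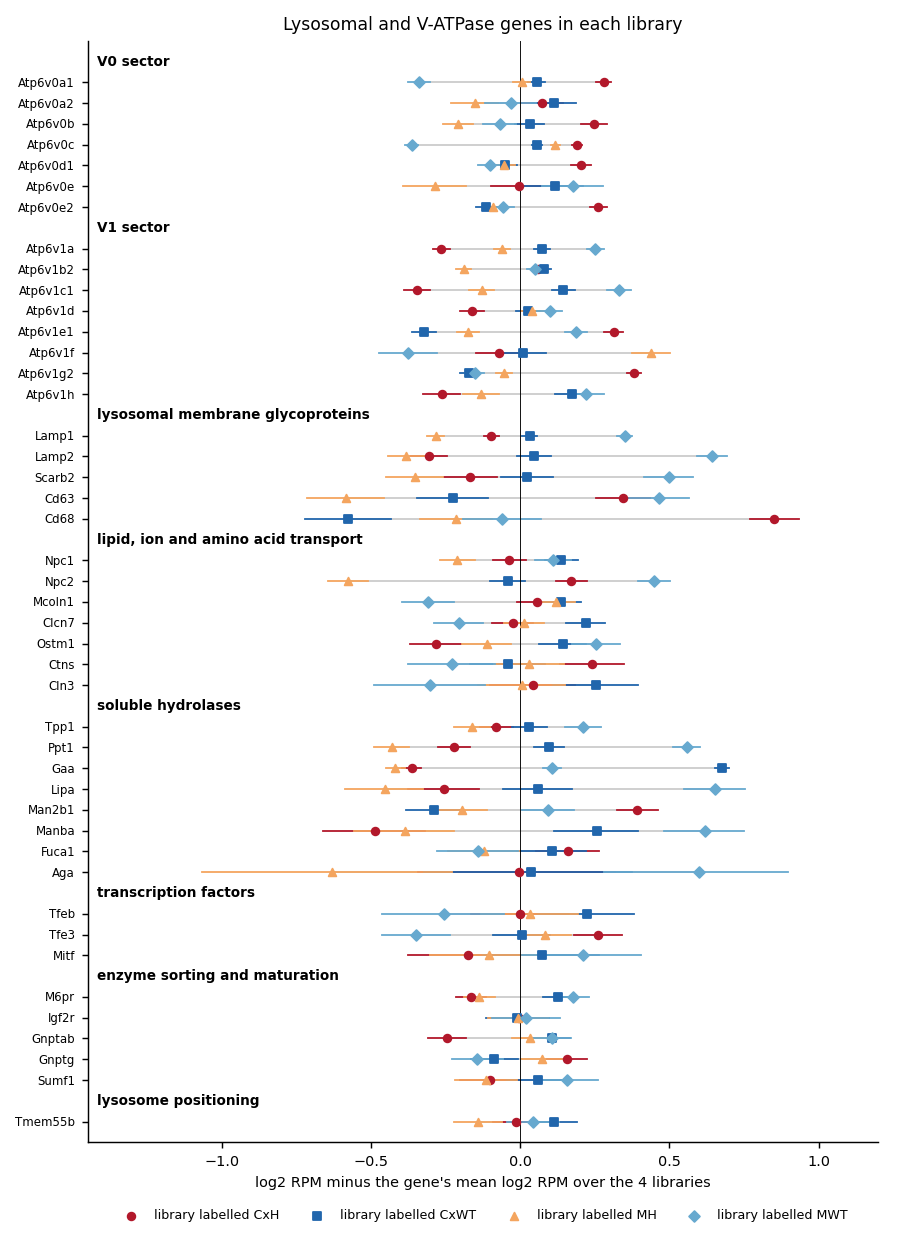
The level of each of the 44 genes in each library, as log2 RPM minus the mean log2 RPM of that gene over the 4 libraries, with 95% exact Poisson intervals as coloured lines, ordered by role. The V-ATPase rows are narrow, MWT lies on the right for Lamp1, Lamp2, Scarb2, Ppt1, Lipa and Manba, and CxH lies far right for Cd68.

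Among the genes of lipid, ion and amino acid transport, Npc2, the soluble partner of Npc1 in the export of cholesterol, was the 1 called in any pair. Of all genes, 41.8% were called in at least 1 pair. Npc2 was at 79.8, 68.8, 47.5 and 96.6 RPM, with MH lowest and MWT highest. It was called lower in MH vs. MWT (-1.03 ± 0.044) and higher in CxH vs. MH (0.75 ± 0.043), and both calls were kept after correction (-1.09 and 0.71). The call in CxH vs. MH was lost with an assumed variation of 0.2 and with a threshold of 1. With Cd63 and Cd68 it made up the 3 of 44 genes called higher in CxH vs. MH, where 2.43% of all genes were called higher. None of the 44 was called lower there, against 1.06% of all genes. In CxH vs. CxWT its ratio was 0.21 ± 0.040. Npc1, the membrane partner of Npc2, was at 68.7, 77.5, 60.9 and 76.0 RPM and was called in no pair.

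The channel and transporter genes of the same role varied less. Mcoln1, the calcium channel TRPML1, was at 47.6, 50.2, 49.6 and 36.9 RPM, and Clcn7, the chloride-proton exchanger, at 45.7, 54.1, 46.9 and 40.3 RPM. MWT was lowest for both. Ostm1, the partner that Clcn7 needs for stability, had its top in MWT instead, at 28.8, 38.7, 32.4 and 41.8 RPM. Ctns, the cystine exporter, was at 18.4, 15.1, 15.9 and 13.3 RPM, and Cln3, the membrane protein lost in juvenile Batten disease, at 10.5, 12.1, 10.2 and 8.26 RPM. None of these 5 was called in any pair, and after correction Clcn7 in MH vs. MWT went from 0.22 to -0.09.

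Soluble hydrolases, with 8 genes, held the largest number of calls, but per gene the 5 membrane glycoproteins held more. In MH vs. MWT, 4 of the 8 were called lower (against 12.7% of all genes) and 7 of 8 had a ratio below 0, with a median of -0.76 (-0.75 after correction), where the median of all genes was -0.07. Gaa, the acid alpha-glucosidase that breaks down glycogen, had most reads and another pattern. It was at 216, 444, 208 and 299 RPM, with CxWT well above the rest and CxH close to MH. Encoded on mm9 chr11:119129201-119146768, it was called lower in CxH vs. CxWT (-1.04 ± 0.020) and MH vs. CxWT (-1.09 ± 0.020). It was the 1 of 44 genes called in MH vs. CxWT, where 8.89% of all genes were called lower, and 0 of 44 were called higher there, against 6.41%. Gaa is among the most GC-rich genes of the set (59.5%), and the correction made its ratios larger, at -1.38 and -1.24, and added calls in MH vs. MWT (from -0.53 to -1.16) and CxH vs. MWT (from -0.47 to -1.30). Markers of oligodendrocytes differed between the same libraries, with 10 genes summing to 5062, 9593, 5272 and 7744 RPM, and their part in the level of Gaa was not tested.

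Ppt1 and Lipa followed Lamp2. Ppt1, the palmitoyl-protein thioesterase lost in infantile Batten disease, was at 75.1, 93.7, 65.0 and 129 RPM. It was called lower in MH vs. MWT (-0.99 ± 0.038) and CxH vs. MWT (-0.78 ± 0.036), and in neither after correction (-0.69 and -0.34). Lipa, the acid lipase of cholesteryl esters, was at 14.8, 18.4, 12.9 and 27.8 RPM. MWT was again clearly highest. Its calls were lower in MH vs. MWT (-1.11 ± 0.083, and -0.86 after correction) and in CxH vs. MWT (-0.91 ± 0.079, and -0.53 after correction, not called).

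Manba, the beta-mannosidase of glycoprotein breakdown, was scarce, at 7.32, 12.3, 7.84 and 15.8 RPM. CxH and MH lay below CxWT and MWT, and their 95% intervals did not overlap, since the higher bound of MH was 8.79 RPM and the lower bound of CxWT was 11.1 RPM. It was called lower in CxH vs. CxWT (-0.74 ± 0.11), MH vs. MWT (-1.01 ± 0.11) and CxH vs. MWT (-1.10 ± 0.11). Manba was the 1 gene of the set called in the same direction in both comparisons named Ids-ko over wt, against 12.7% of all genes. The call in CxH vs. CxWT was lost after correction (-0.70, just short of the threshold), with TMM (-0.65) and DESeq2 factors (-0.66), and with an assumed variation of 0.2 between libraries. The other calls were -0.95 and -0.98 after correction. After the correction Gaa, and not Manba, was called lower in both comparisons named Ids-ko over wt (-1.38 and -1.16), against 10.7% of all genes. With Gaa it made up the 2 of 44 genes called lower in CxH vs. CxWT, against 11.5% of all genes.

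The remaining hydrolases varied without a shared order. Tpp1, the tripeptidyl peptidase lost in late infantile Batten disease, was at 65.5, 70.7, 61.9 and 80.1 RPM. Man2b1, the alpha-mannosidase, was at 45.3, 28.2, 30.1 and 36.8 RPM, with CxH highest. Fuca1, the alpha-fucosidase, was at 18.8, 18.1, 15.5 and 15.2 RPM. These 3 were called in no pair. Aga, the aspartylglucosaminidase, had 78, 70, 49 and 89 reads and was among the genes called lower in MH vs. MWT, where its counts leave the ratio wide.

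Regulators of the compartment were not called in any pair, against 41.8% of all genes called in at least 1. Tfe3, the most abundant of the 3 transcription factors, was at 32.4, 27.1, 28.7 and 21.2 RPM, with ratios of 0.26 ± 0.063 in CxH vs. CxWT and 0.43 ± 0.073 in MH vs. MWT. Tfeb was at 8.16, 9.52, 8.35 and 6.84 RPM and Mitf at 5.56, 6.60, 5.83 and 7.25 RPM. Tfeb had the highest GC content of the set (63.2%), and in CxH vs. MWT its ratio of 0.25 turned to -0.79 after correction, which passed the thresholds. For Tfe3 the correction left ratios between -0.03 and 0.01 in all 6 pairs.

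The genes of enzyme sorting and maturation were steady. Igf2r, the large mannose 6-phosphate receptor that returns hydrolases to lysosomes and also binds IGF2, was at 21.8, 21.7, 21.7 and 22.1 RPM, and its highest level was 1.02-fold its lowest. M6pr, the small mannose 6-phosphate receptor, was at 81.4, 99.6, 83.0 and 103 RPM, with ratios of -0.29 ± 0.036 in CxH vs. CxWT and -0.31 ± 0.037 in MH vs. MWT. CxH and MH were below CxWT and MWT for it, without a call. Gnptab and Gnptg make the enzyme that adds the mannose 6-phosphate tag. They were at 50.1, 63.9, 60.8 and 63.9 RPM and at 47.0, 39.7, 44.3 and 38.1 RPM. Sumf1, which activates the sulfatases including iduronate 2-sulfatase, was at 20.7, 23.2, 20.6 and 24.8 RPM. Tmem55b, which recruits an adaptor of dynein for transport of lysosomes toward the cell centre, was at 36.0, 39.3, 32.9 and 37.4 RPM, with ratios of -0.13 ± 0.055 and -0.18 ± 0.060. All ratios of these 6 genes lay between -0.35 and 0.30.

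Across the set, MH held the lowest level of 17 genes and the highest of 1, and MWT the highest of 20 and the lowest of 12. CxH was highest for 13 and lowest for 9, and CxWT for 10 and 6. In MH vs. MWT, 8 of 44 were called lower, against 12.7% of all genes, and these were Lamp2, Scarb2, Cd63, Npc2, Ppt1, Lipa, Manba and Aga. In CxH vs. MWT, 4 of 44 were called lower, against 15.1% of all genes, and these were Lamp2, Ppt1, Lipa and Manba. In CxWT vs. MWT none of the 44 was called, where 5.43% of all genes were called higher and 2.11% lower. Cd63 came nearest, at -0.69 ± 0.079.

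The medians of the 44 ratios were -0.11 in CxH vs. CxWT (all genes -0.09), -0.25 in MH vs. MWT (-0.07), -0.22 in MH vs. CxWT (-0.11), 0.15 in CxH vs. MH (0.01), -0.05 in CxWT vs. MWT (0.04) and -0.09 in CxH vs. MWT (-0.04). Of the 44, 11 were called in at least 1 of the 6 pairs and 33 in none, where 41.8% of all genes were called in at least 1.

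**Figure D3:**
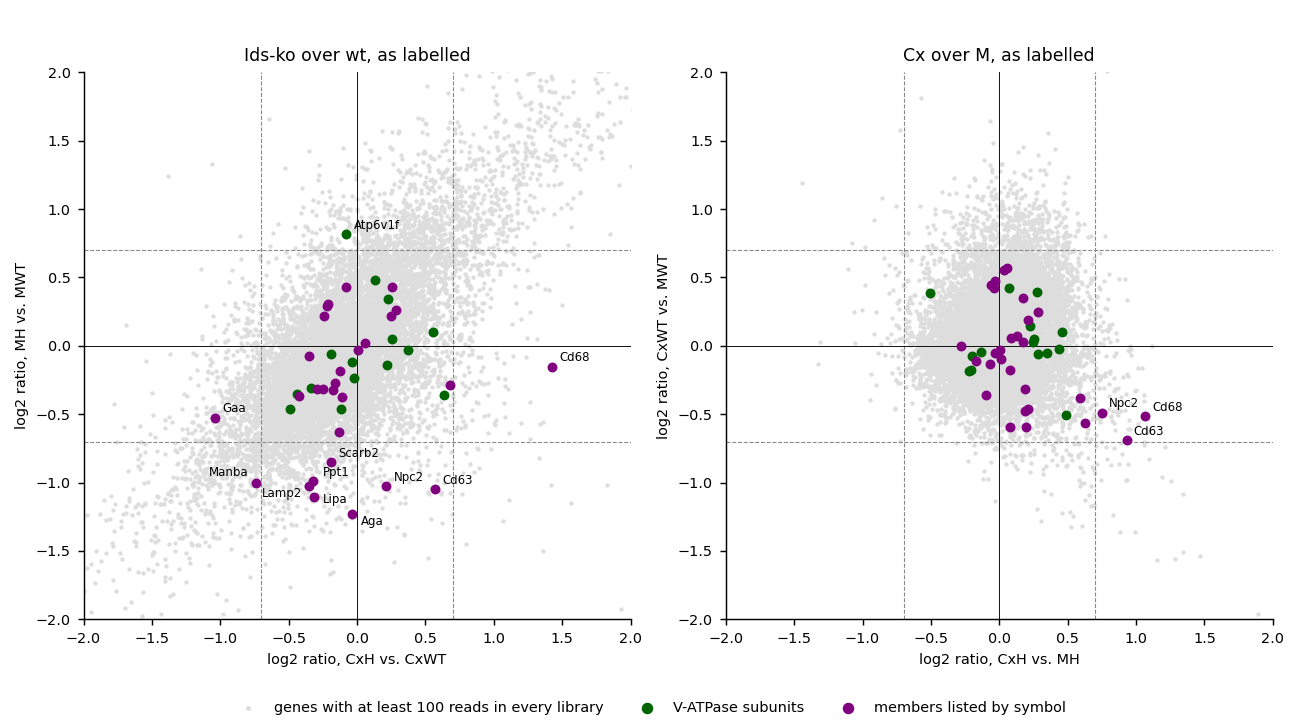
Log2 ratios of the 44 genes (green V-ATPase subunits, purple genes listed by symbol) and of genes with 100 or more reads in each library (grey, those within the axes), in the comparisons named Ids-ko over wt (left) and Cx over M (right). Dashed lines mark log2 ratios of 0.7 in size, and called members are named. Cd68 lies far right in both panels, and Cd63 and Npc2 lie at the lower right.

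The comparisons of Cx over M had opposite signs for 22 of the 44 genes (50%), near the 44.3% of all genes, and the members lay mostly on one side. CxH was above MH and CxWT below MWT for 17 of the 44 genes (38.6%), against 20.4% of all genes, and the reverse held for 5 (11.4%), against 23.9%. The V-ATPase gave 4 of its 15 subunits and the listed genes 13 of 29, among them the 5 membrane glycoproteins. After the correction for GC content and length, 25 of the 44 had opposite signs (56.8%), against 61.9% of all genes. CxH was then above MH and CxWT below MWT for 16 (36.4%), against 28.2%, and the reverse held for 9 (20.5%), against 33.7%. Over the 44 genes these ratios had a Pearson correlation of -0.46 and a Spearman correlation of -0.28, and over the 10706 genes that had 100 or more reads in each library they had 0.036 and 0.12. After correction the Pearson values were -0.64 and -0.42. These comparisons share no library, but the genes share each library's base composition and depth. Both comparisons of Ids-ko over wt were below 0 for 23 of 44 (52.3%), against 42.4% of all genes.

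GC content of the transcript moved with the ratios, more weakly in some pairs than in others. Over the 44 genes the Pearson correlation was 0.26 in CxH vs. CxWT, 0.21 in MH vs. CxWT and 0.16 in CxH vs. MH. It was 0.55 in MH vs. MWT and 0.60 in CxWT vs. MWT. Within the 15 V-ATPase subunits it ran from 0.36 in CxH vs. MH to 0.88 in CxH vs. MWT. In CxH vs. MWT the ratio rose with GC content over the 44 genes (Pearson 0.65, Spearman 0.70), as it did over the 10706 genes (0.63 and 0.69). Within the 15 V-ATPase subunits alone the Pearson correlation was 0.88. There the subunits with under 46% GC, Atp6v1d, Atp6v1h, Atp6v1a, Atp6v0e and Atp6v1c1, had ratios from -0.68 to -0.18, and after the correction from -0.24 to 0.29. The correction fitted a curve of GC content and length over all those genes and took it off each ratio. With it 10 of 44 genes were called in at least 1 pair in place of 11 (27.5% of all genes), again 1 of the 15 V-ATPase subunits among them, and 14 of the 21 calls were kept. Read against all genes, called in either direction, the background was 20.9% in CxH vs. CxWT, 25% in MH vs. MWT, 15.3% in MH vs. CxWT, 3.5% in CxH vs. MH, 7.54% in CxWT vs. MWT and 30.7% in CxH vs. MWT. After correction these were 17.6, 18.4, 14.9, 2.39, 3.03 and 16.4%, and the members called numbered 2, 7, 1, 4, 0 and 4. Over the 10706 genes the Pearson correlation with GC content was 0.39 in CxH vs. CxWT, 0.45 in MH vs. MWT and 0.14 in MH vs. CxWT, which like CxH vs. MWT differ in area markers, and it was 0.55 for CxH over MH and 0.61 for CxWT over MWT, which differ little in them. Ids differed little in MH vs. CxWT (0.06 ± 0.018) and CxH vs. MWT (-0.20 ± 0.029). The parts of GC content, area and Ids in the ratios of the members were not tested beyond that correction.

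**Figure D4:**
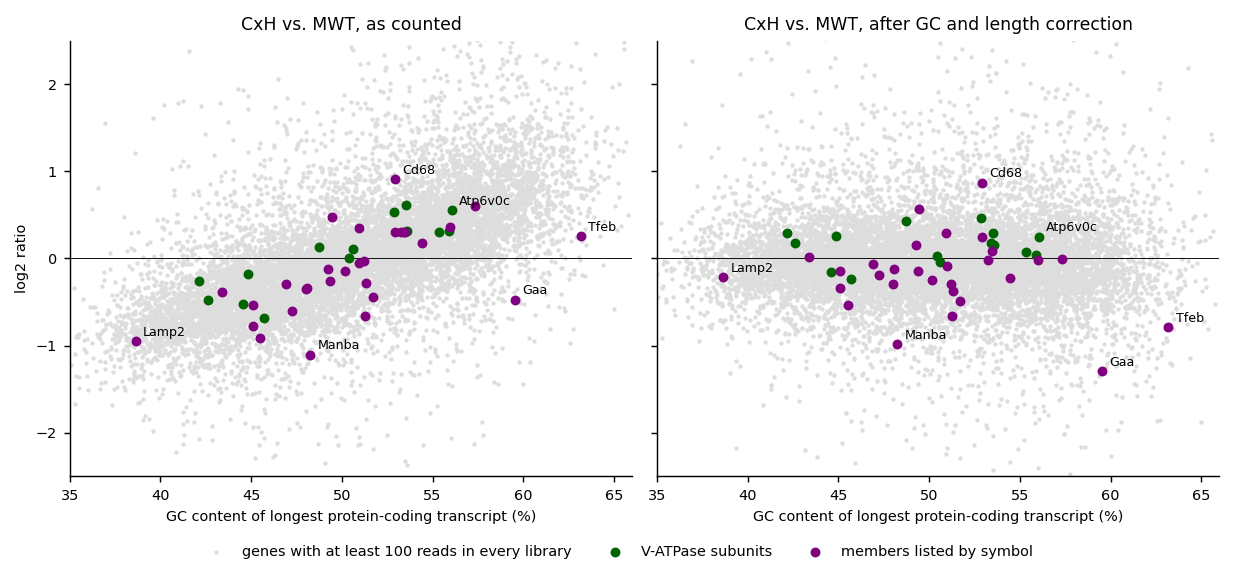
Log2 ratio in CxH vs. MWT against the GC content of the longest protein-coding transcript in percent, as counted (left) and after the correction for GC content and length (right), for the 44 genes (green and purple) and for genes with 100 or more reads in each library (grey). The upward slope on the left is gone on the right, Lamp2 moves toward 0, and Gaa and Tfeb move down.

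Other genes of the same compartment were set beside the 44. Of 38 other soluble lysosomal proteins, 35 had a ratio above 0 in CxH vs. MH, with a median of 0.34, and 5 were called higher (2.43% of all genes) and 0 lower. Ctsd, the main aspartyl protease of lysosomes, had 1.06 ± 0.016 and Ifi30, a thiol reductase of antigen-presenting cells, 1.06 ± 0.17. The lowest were Galns (-0.52 ± 0.15) and Arsb (-0.12 ± 0.029), both sulfatases of glycosaminoglycans. In CxWT vs. MWT, 25 of the 38 were below 0 and 6 were called lower (2.11% of all genes) and 0 higher, with Ctsl (-1.16 ± 0.057) and Asah1 (-0.81 ± 0.057) lowest. In MH vs. MWT, 8 were called lower (12.7% of all genes) and 0 higher, with a median of -0.35. The direction was the other in CxH vs. CxWT, with 27 of the 38 above 0, a median of 0.12, and 4 called higher (9.46% of all genes) and 0 lower (1 and 0 after correction).

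Of 38 membrane proteins outside the set, 3 were called higher (2.43% of all genes) and 0 lower (1.06%) in CxH vs. MH (median 0.11). Laptm5, a lysosomal protein of blood-derived cells and microglia, was highest at 0.99 ± 0.043. In CxWT vs. MWT, 2 were called higher (5.43% of all genes), Spns1 (1.27 ± 0.074) and Atp13a2 (0.90 ± 0.035), and 0 lower (2.11%). After correction Atp13a2 was at 0.20. In the other pairs 4 were called higher and 1 lower in CxH vs. CxWT, 3 and 3 in MH vs. MWT, 6 and 2 in CxH vs. MWT, and 1 and 0 in MH vs. CxWT. After correction these were 5 and 1, 2 and 0, 1 and 0, and 1 and 1. Before correction, 9.46% of all genes were called higher and 11.5% lower in CxH vs. CxWT. These shares were 12.3 and 12.7% in MH vs. MWT and 15.6 and 15.1% in CxH vs. MWT. They were 6.41 and 8.89% in MH vs. CxWT. Ratios of the 38 ran from -0.71 to 2.36 in CxH vs. CxWT and from -0.92 to 2.44 in MH vs. MWT. Accessory and assembly factors of the V-ATPase gave 0 calls of 15 in CxH vs. MH (3.5% of all genes). In CxWT vs. MWT they gave 1 (7.54%), Tmem199 (-0.88 ± 0.050, and -0.66 after correction), an assembly factor of the V0 sector. In CxH vs. MWT, 5 of the 15 were called lower (15.1% of all genes) and 0 higher, and in MH vs. MWT 2 lower (12.7%) and 0 higher. After correction 2 and 3 were lower and 0 higher. Their ratios in CxH vs. MH ran from -0.40 ± 0.029 (Atp6ap2) to 0.54 ± 0.045 (Rogdi). They ran from -1.25 to 0.57 in CxH vs. CxWT and from -1.52 to 0.36 in MH vs. MWT. In CxH vs. MWT they ran from -1.68 to 0.52. In CxH vs. CxWT 1 of the 15 was called lower (11.5% of all genes), and in MH vs. CxWT 1 (8.89%), with 0 higher in both. After correction the counts of these 2 pairs were the same. Among 31 genes of mTORC1 signalling at the lysosome and of lysosome positioning, 2 were called higher in CxH vs. MH (2.43% of all genes), Lamtor4 (0.86 ± 0.077) and Borcs5 (0.73 ± 0.069). In CxWT vs. MWT 1 was called lower (2.11%), Lamtor5 (-0.79 ± 0.088). In MH vs. MWT 7 of the 31 were called lower (12.7% of all genes) and 1 higher (12.3%), and in CxH vs. MWT 2 lower (15.1%) and 2 higher (15.6%). After correction these were 5 lower and 0 higher, and 2 lower and 0 higher. In CxH vs. CxWT 1 of the 31 was called lower (11.5%), and in MH vs. CxWT 1 (8.89%), with 0 higher in both, before and after correction. Ratios of the 31 ran from -1.39 to 0.66 in CxH vs. CxWT and from -1.28 to 0.71 in MH vs. MWT. In CxH vs. MWT they ran from -1.57 to 0.81. Among 27 genes of sorting to the lysosome, Nagpa was called higher in CxH vs. MH (0.80 ± 0.12, against 2.43% of all genes). Gga1 was called higher in CxWT vs. MWT (0.80 ± 0.065, against 5.43%). None of Lamtor4, Borcs5, Lamtor5, Nagpa and Gga1 was called after correction. In MH vs. MWT 3 of the 27 were called lower (12.7% of all genes) and 2 higher (12.3%). In CxH vs. MWT 3 were called lower (15.1%) and 5 higher (15.6%). After correction 1 call was left in the first, higher, and 0 in the second.

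Reads could also be shared with neighbouring genes. By GENCODE vM1 on the genome build of the counts, 10 of the 44 genes overlapped an exon of a gene on the opposite strand and 0 one on the same strand. The share of exon bases was largest for Tmem55b (19.5%, with Apex1), Atp6v0b (11.8%) and Gnptg (9.53%). Of the 11 called genes only Ppt1 was among these 10, with 3.51%. Whether the authors' counting used the strand is not given in the sources used here.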

How the data were processed

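PolyA RNA pooled from each of both areas of 7 Ids-ko and 7 wt mice (4 libraries) was sequenced by the authors on a SOLiD 3 Plus instrument. They aligned reads to NCBI37/mm9 with PASS, allowing at most 2 mismatches, and kept uniquely assigned reads, and only genes with reads over more than 50% of their length. The deposited values are raw counts of reads per gene, 1 column per library, with no normalization by the authors, for 12700 genes. Genes outside this table were not analysed here. The gene annotation behind the counts is not given in the sources used here.

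RPM were computed from these counts and the number of aligned reads of each library that the authors state. A count of 0 was set to 1 for ratios. Calls used the Poisson likelihood ratio test and the thresholds of the authors (a p-value under 0.05, a log2 ratio of 0.7), run on every gene for all 6 pairs of libraries. With 1 library per condition no spread between pools was available. The step was tested on simulated data. A floor of 3 reads corresponded to 0.0779, 0.0892, 0.0803 and 0.104 RPM, and 95% intervals are exact Poisson intervals.

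Positions, transcript length and GC content came from GENCODE vM1 on mm9, and promoter windows from RefSeq on GRCm38.p6. The correction subtracted a cubic fit on GC content and log10 length of the longest protein-coding transcript, made over genes with 100 or more reads in each library, and gave ratios for 12231 genes. Alternatives were other library scalings, filters on reads, a threshold of 1, 0.5 added to counts, Benjamini-Hochberg adjustment, edgeR's exact test with an assumed variation of 0.1 or 0.2, and that correction.

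The members, their roles and the marker and lysosomal lists were chosen with earlier results of these data known. Every member is named with its level. Ratios with errors are given for members called in at least 1 pair and for the member of each role with most reads, Aga (under 100 reads in every library) by reads only. Beside them stand Ids and, from each lysosomal list, up to 2 genes with the highest and 2 with the lowest ratio in CxH vs. MH or CxWT vs. MWT. Proteins of the V-ATPase isoforms were not compared here. The scaling factors came from DESeq2 1.42.0 and edgeR 4.0.16 under R 4.3.3, the tests from scipy 1.17.1 under Python 3.11.15 (pandas 2.3.3, numpy 2.4.6), and the figures from matplotlib 3.10.9.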

Additional observations from a re-analysis of the deposited data

Results flagged for a closer look

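Genes whose ratio had opposite signs in matched comparisons, each with a 95% counting interval that left out 0 and called in 1 of them, were Cd63, Npc2 and Cd68. With 1 library per condition the difference between comparisons was not tested. Between comparisons of Ids-ko over wt, Cd63 had a log2 ratio of 0.57 in CxH vs. CxWT and -1.05 in MH vs. MWT, and Npc2 had 0.21 and -1.03. Between comparisons of Cx over M, Cd63 had 0.93 in CxH vs. MH against -0.69 in CxWT vs. MWT. Cd68 had 1.07 and -0.52, and Npc2 had 0.75 and -0.49. Markers of activated microglia had medians of opposite sign in the same pairs, -1.21 in CxWT vs. MWT against 1.01 in CxH vs. MH, and -1.47 in MH vs. MWT against 0.92 in CxH vs. CxWT, and their part in these ratios was not tested.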

How the results depend on the processing

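Of the 21 member calls over the 6 pairs, 21 were kept with column totals, with 0.5 added, with at least 10 reads in every library, with adjusted p-values and with an assumed variation of 0.1, and 20 of the 20 still tested were kept with 100 reads in either library. TMM and DESeq2 factors each kept 20, a variation of 0.2 kept 17 (without Atp6v1f in MH vs. MWT, Npc2 in CxH vs. MH, Ppt1 in CxH vs. MWT and Manba in CxH vs. CxWT), the correction for GC content and length 14, and a threshold of 1 kept 11. No call changed sign. In CxH vs. CxWT, TMM and DESeq2 factors each turned 1 member higher and 2 lower into 3 higher and 1 lower, with Atp6v1e1 and Man2b1 gained and Manba lost, and the median of the members went from -0.11 to -0.02 with TMM and -0.03 with DESeq2 factors. With a threshold of 1, 1 member was called in CxH vs. MH and 1 in CxH vs. MWT. With column totals 8 were called in CxH vs. MWT, and 1 in CxWT vs. MWT, as with TMM (1) and DESeq2 factors (1). The median of the members went to -0.14 in MH vs. MWT after correction, to -0.20 in CxH vs. MWT with column totals, and to -0.11 in MH vs. CxWT with TMM and -0.11 with DESeq2 factors. In CxWT vs. MWT it was 0.02 after correction, of the other sign. Scaling also moved all genes: with column totals their median in CxH vs. MWT went from -0.04 to -0.15, and the calls from 1980 higher and 1915 lower to 1609 and 2504. TMM factors moved their median in MH vs. CxWT from -0.11 to 0.00, and the calls there from 814 higher and 1129 lower to 1013 and 855, and in CxH vs. CxWT from 1201 and 1457 to 1447 and 1135. With column totals the calls went from 309 and 135 to 257 and 183 in CxH vs. MH, and from 690 and 268 to 480 and 390 in CxWT vs. MWT. No paired analysis was run. Each condition is 1 library, and a model of area with genotype as the block, which stands for the shared mice, would leave 1 residual degree of freedom. The cause of these changes was not tested beyond their construction. Depth limits the scarcest members, Aga, Manba, Mitf and Tfeb, and 1 library per condition limits every comparison.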
